A study of Homo sapiens with 21 samples.

Results

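Caffeine is a methylxanthine that blocks adenosine receptors and, at higher concentrations, inhibits cyclic nucleotide phosphodiesterases and opens intracellular calcium channels. The comparison described here sets the highest caffeine dose of a dose series, 1000 µM, against the next lower dose, 100 µM, in HepG2, a human hepatocellular carcinoma line that keeps much of the liver's lipid and plasma protein synthesis. It asks which transcripts change over the last 10-fold step in dose. It uses the 6 libraries of these groups, 3 per dose, out of 21 libraries in the series. The libraries were taken by their dose labels.

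In both groups the serum-containing medium was replaced, after a wash, with serum-free DMEM holding caffeine at 1000 or 100 µM, and the cells were harvested with trypsin 24 h later. Serum withdrawal is therefore shared by both groups and by the untreated controls. The series design calls the 3 samples of a group biological replicates, but no label says that they came from separate days or passages, so p-values measure the spread between these samples. In bulk RNA, fewer cells transcribing a gene and less RNA per cell cannot be told apart. Values are read counts scaled to library size (CPM), and CPM are compared only within a gene, since they are not corrected for transcript length. A feature is said to have risen, fallen or been called when the adjusted p of edgeR's quasi-likelihood test, Benjamini-Hochberg over all tested features, was under 0.05, and a log2 fold change is 1000 minus 100 µM.

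The 6 libraries held between 23502519 and 44815552 counts and did not fall into groups by dose alone. Mitochondrial features took 4.86%, 4.85% and 11.8% of counts in replicates 1, 2 and 3 at 1000 µM, and 12.7%, 4.72% and 12.8% at 100 µM. Clustering on the relative counts of mitochondrial mRNAs put replicate 2 at 100 µM with 1000 µM replicates 1 and 2, a set of low mitochondrial share. The other 3 libraries formed a set of high share. Counts of MT-ND4 over those of MT-CO1 were 0.357 to 0.452 against 0.752 to 0.915. Both genes were among those clustered, so this ratio is no separate check of the sets. Within a dose, the pair of libraries from the same set differed less, though by more than read-counting noise (chi-square per gene of 4.04 at 1000 µM and 4.10 at 100 µM, where noise alone gives about 1), and pairs across the sets differed more (120.2 to 163.2). Each set holds both doses, so the dose difference was measured separately in each, with no library in common. Results are given below for the 6 libraries together, with a term for the library set or within each set, and for the difference between the sets. The HepG2 label was borne out by its markers, with albumin (ALB), alpha-fetoprotein (AFP), glypican 3 (GPC3) and HNF4A at 6110 to 8719, 1904 to 3765, 2334 to 2661 and 262.6 to 301.1 CPM over the 6 libraries. Of markers of other cell types, the T cell and pan-leukocyte genes CD3E and PTPRC, the fibroblast genes DCN and LUM and the endothelial gene TEK had no counts in any of the 6 libraries. The summed level of 6 fibroblast markers was 18.2 to 23.5 CPM at 1000 µM and 5.51 to 6.49 CPM at 100 µM, and it consisted largely of PDGFRB, a growth factor receptor (18.1, 18.5 and 23.5 against 5.51, 5.71 and 6.40 CPM). The summed level of 5 leukocyte markers, nearly all of it lysozyme (LYZ), was 1393 to 1919 CPM at 1000 µM and 1594 to 1698 CPM at 100 µM. That of 3 endothelial markers was 0.249 to 0.283 CPM and at most 0.128 CPM, and that of 4 bile duct markers 540.4 to 549.0 and 539.8 to 618.0 CPM. The part of cells of other types in the results was not tested.

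Of 17951 features tested, 7906 (44%) differed between 1000 and 100 µM, with 3908 (21.8%) higher and 3998 (22.3%) lower at 1000 µM. Of these, 1005 rose and 1182 fell by more than 2-fold. The 3 libraries of each dose did not overlap for 6761 of the 7906 called features. A lack of overlap thus adds little to a call. The median log2 fold change over all tested features was 0.00. With the library set as a term, 8310 features (46.3%) were called, and 7396 were called in the same direction by both fits. Among 13010 protein-coding genes tested, 3066 rose and 3453 fell. At this background, a list of genes drawn without regard to the data would also hold many calls, so each list below is read against 21.8% higher and 22.3% lower.

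The dose difference was largely of the same sign in the separate library sets. Within the set of low mitochondrial share, where the lone 100 µM library is assumed to vary like the other groups, 7754 features (43.2%) were called, and within the high set, with a lone 1000 µM library, 4734 (26.4%). Of the calls in the low set, 91.4% had the same sign in the high set, and of the calls in the high set, 96.0% had the same sign in the low set, against 74.5% of all tested features. Both sets called 3790 features, 3774 of them in the same direction, which is 48.7% of the low set's calls and 79.7% of the high set's. Over the 11086 features with a mean of at least 5 CPM, the log2 fold changes of the sets had a Pearson r of 0.82 (0.41 over all features). The features share their libraries and are not independent replicates. A test of the difference between the sets called 17 features (0.0947%), with 2906 at an unadjusted p under 0.05, but 3485 when only the 6 libraries entered the fit, so how many genes differ in size between the sets depends on that choice.

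**Figure D1:**
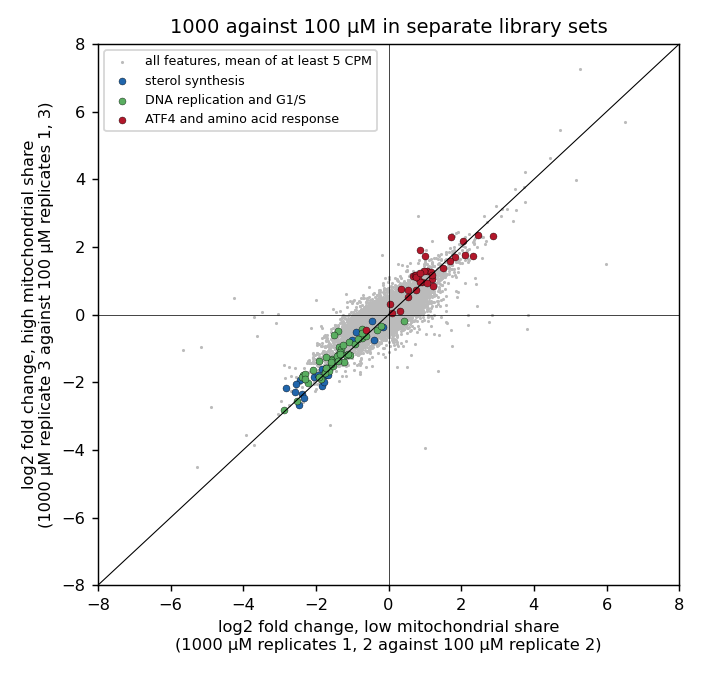
Each point is 1 of 11086 features with a mean of at least 5 CPM, with its log2 fold change (1000 against 100 µM) in the low mitochondrial share libraries on the x axis and in the high share libraries on the y axis; the diagonal marks equal values. Sterol synthesis (blue) and DNA replication genes (green) lie at the lower left and ATF4 response genes (red) at the upper right, near the diagonal.

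The 12 genes with the largest rises, among protein-coding genes with at least 5 CPM on average and no overlap between doses, were KLHDC7B, TMEM156, ZACN, C5AR1, AQP3, SLC22A15, IGFBP1, CYP1A1, DEPP1, MT1E, FST and EDN1, with log2 fold changes from 6.12 down to 3.02. KLHDC7B, TMEM156, ZACN, C5AR1, AQP3, SLC22A15 and MT1E reached the mean of 5 CPM only through the 1000 µM libraries. At 100 µM the leading 4 averaged 0.149, 0.189, 0.219 and 0.392 CPM, so the size and order of their rises are imprecise. KLHDC7B, for one, had 5.26 in the low and 7.27 in the high set. ZACN, at 5.60 in the 6 libraries together, had 4.76 with the set term and 1.503 in the high set, and by limma-voom its value of 4.70 did not pass. The 11 genes given here at the other end were FADS2, TUBB1, GINS2, FAM111B, CA9, HSD17B7, MVD, IDI1, MAB21L4, DHCR7 and E2F2, from -3.80 to -2.40. TUBB1, GINS2, FAM111B, CA9, MAB21L4 and E2F2 averaged under 5 CPM at 1000 µM and reached the mean of 5 CPM only through the 100 µM libraries. Genes at both ends were chosen for doses that do not overlap, so a lack of overlap is no further result for them. Of these 11 falls, 5 are genes of cholesterol or fatty acid metabolism and GINS2 and E2F2 serve DNA replication or its control. The rises hold secreted regulators (IGFBP1, the activin antagonist follistatin FST, and the vasoconstrictor peptide endothelin EDN1). They also hold the complement C5a receptor C5AR1 and the FOXO-responsive gene DEPP1. These functions describe genes already ranked. The share of all genes with such functions was not counted, and enrichment was not tested.

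**Figure D2:**
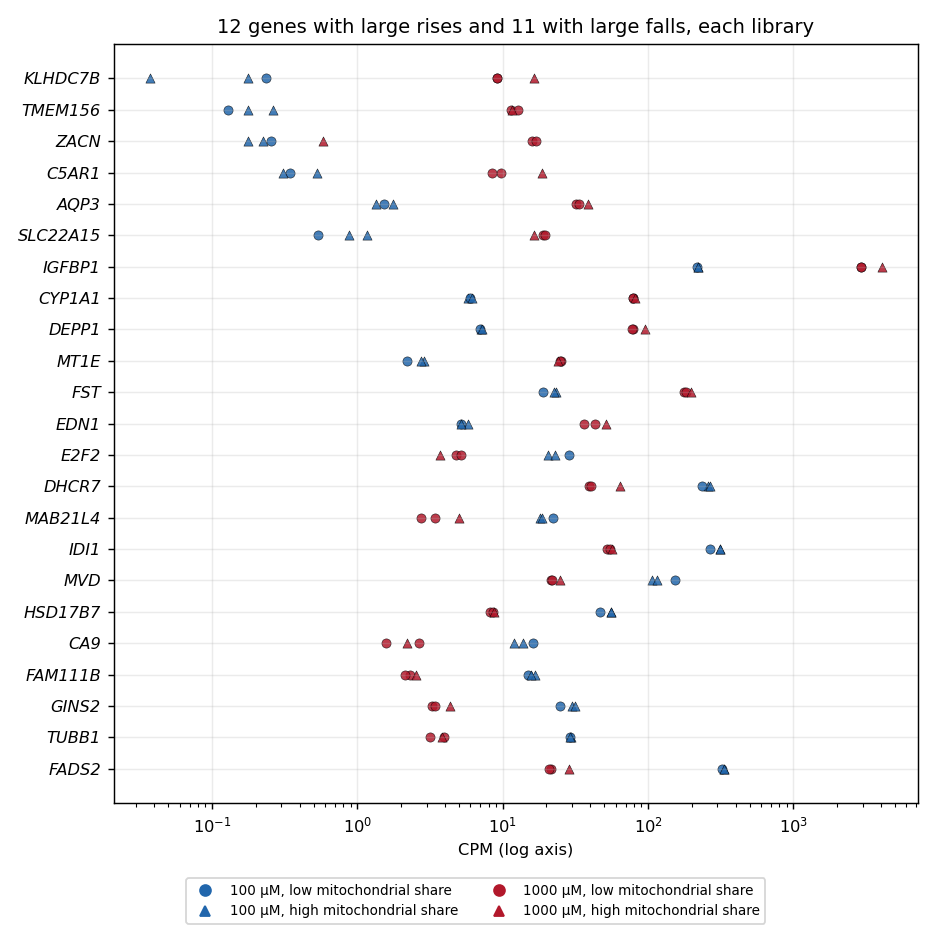
CPM (log axis) of the 12 genes with the largest rises and 11 genes with large falls in each of the 6 libraries, in blue for 100 µM and red for 1000 µM, with circles for libraries of low and triangles for those of high mitochondrial share. Genes were chosen for doses that do not overlap, and ZACN in the high share library at 1000 µM, at 0.580 CPM, is the point closest to the other dose.

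IGFBP1 (ENSG00000146678.10; chr7:45888488-45893660 on GRCh38.p14) encodes a liver-secreted protein that binds insulin-like growth factors and that is normally repressed by insulin. It stood at 2931, 2932 and 4065 CPM in replicates 1, 2 and 3 at 1000 µM and at 220.2, 216.9 and 221.7 CPM at 100 µM. The lowest library at 1000 µM was thus far above the highest at 100 µM, and at 1000 µM the high share library stood above the other 2. The rise was 15.1-fold, a log2 fold change of 3.91 ± 0.15 (SE; adjusted p 3.26e-13 by edgeR), with 3.76 in the low and 4.20 in the high mitochondrial set. Over the lower doses, group means of IGFBP1 ran from 103.9 ± 9.52 CPM in control to 158.1 ± 23 CPM at 1 µM and 153.3 ± 17.2 CPM at 10 µM (SD, n = 3), so that most of its range lay between 100 and 1000 µM.

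AQP3 (ENSG00000165272.16; chr9:33441160-33447593 on GRCh38.p14) encodes an aquaglyceroporin, a channel for water and glycerol. It stood at 31.8, 33.7 and 38.6 CPM at 1000 µM and at 1.35, 1.51 and 1.77 CPM at 100 µM. The rise was 22.5-fold, a log2 fold change of 4.49 ± 0.17 (SE; adjusted p 3.80e-13 by edgeR), with 4.43 and 4.64 in the low and high sets. Among 8 aquaporin and glycerol genes tested, 2 rose and 2 fell. Glycerol kinase, GK, which phosphorylates glycerol, rose from 120.2, 121.0 and 131.0 CPM to 267.7, 278.3 and 229.7 CPM (1.06), and the intracellular aquaporin AQP11 fell (-0.84).

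Of 9 genes of the insulin-like growth factor system tested, IGFBP1 included, 3 rose and 3 fell, with a median of -0.24, which was -0.51 in the low and 0.31 in the high set. The ligand IGF2 fell from 112.5, 127.4 and 118.1 CPM to 42.5, 45.9 and 77.9 CPM (-1.11), but in the high mitochondrial set alone its value of -0.57 did not pass. The receptor IGF1R rose (1.03), from 84.0, 148.6 and 98.7 CPM to 248.2, 255.0 and 175.7 CPM. IGFBP7 fell by 0.79 with overlapping doses, and lost its call in 5 alternatives, among them without replicate 1 (-0.65) or replicate 2 (-0.58) at 1000 µM or without replicate 3 at 100 µM (-0.69).

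Cholesterol is built from acetyl-CoA by a chain of enzymes whose genes are switched on together by the transcription factor SREBP2 when sterols in the endoplasmic reticulum are low, and hepatocytes are a main site of this synthesis. Of 21 sterol synthesis genes tested, 19 fell at 1000 µM and none rose, with a median log2 fold change of -1.87, against 0.00 over all features. The medians in the low and high mitochondrial sets were -1.84 and -1.81. The 19 were also the members whose doses did not overlap. Doses did not overlap for 45.1% of all tested features and for 6761 of the 7906 called ones. Phosphomevalonate kinase (PMVK, -0.06) and the lamin B receptor (LBR, -0.16), which carries a sterol reductase activity, did not pass, although with a term for the library set all 21 members were called lower. PMVK's value was above 0 without replicate 2 at 100 µM (0.44) or without replicate 3 at 1000 µM (0.16), and passed in neither case.

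The promoters of HSD17B7, which acts late in the pathway, and of MVD, the mevalonate diphosphate decarboxylase, are shown because these genes had the strongest falls of the list. Each is the RefSeq sequence (GRCh38.p14) from 250 bases before to 50 after the gene's start, written 5′ to 3′ on the gene's strand, for HSD17B7 at chr1:162790452-162790751, plus strand, and for MVD at chr16:88663042-88663341, minus strand. Capitals mark CCAAT boxes (CCAAT, searched on both strands, where the other strand reads ATTGG), the element bound by NF-Y, a partner of SREBPs.
HSD17B7: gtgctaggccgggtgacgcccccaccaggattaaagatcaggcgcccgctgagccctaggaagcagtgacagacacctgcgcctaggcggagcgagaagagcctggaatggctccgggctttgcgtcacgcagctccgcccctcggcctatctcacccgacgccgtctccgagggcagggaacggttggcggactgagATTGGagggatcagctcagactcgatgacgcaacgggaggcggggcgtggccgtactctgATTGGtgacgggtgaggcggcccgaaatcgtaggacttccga
MVD: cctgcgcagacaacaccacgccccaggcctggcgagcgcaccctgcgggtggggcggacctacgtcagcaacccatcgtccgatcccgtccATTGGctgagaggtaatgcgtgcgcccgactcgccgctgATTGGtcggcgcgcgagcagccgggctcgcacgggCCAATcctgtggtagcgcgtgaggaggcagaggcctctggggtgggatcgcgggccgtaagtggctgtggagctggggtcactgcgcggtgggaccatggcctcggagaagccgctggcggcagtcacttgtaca
Of 16 sterol synthesis genes with a promoter in the table, 12 held this motif, against 35.7% of 27305 promoters. The letters TCACNCCAC, a sterol regulatory element core, were in none of the 16, and in 1.15% of all promoters, on either strand. A match is a description of the sequence, and the lack of one says only that these letters are not in this window.

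At the head of the pathway, ACAT2 (ENSG00000120437.8; chr6:159762045-159779112 on GRCh38.p14), a cytosolic thiolase that makes acetoacetyl-CoA, stood at 77.2, 78.9 and 76.8 CPM at 1000 µM and at 403.8, 410.8 and 377.7 CPM at 100 µM. The doses were wide apart and each was tight. The fall was 5.12-fold (log2 fold change -2.36 ± 0.08 SE, adjusted p 6.20e-14 by edgeR). SQLE (ENSG00000104549.12), the squalene epoxidase that catalyses the first oxygenation step, stood at 75.8, 78.3 and 88.1 CPM against 306.5, 294.2 and 299.0 CPM. It fell 3.72-fold (-1.89 ± 0.07 SE, adjusted p 1.86e-13), with -1.93 and -1.78 in the low and high sets. SQLE means from control to 100 µM lay between 299.9 and 323.8 CPM. HSD17B7 stood at 8.22, 8.57 and 8.66 CPM against 55.9, 46.5 and 55.6 CPM (-2.63), and MVD at 21.4, 21.8 and 24.8 CPM against 107.3, 152.2 and 114.5 CPM (-2.46). Both genes were chosen for doses that do not overlap. The isomerase IDI1 and the last reductase of the pathway, DHCR7, fell by 2.45 and 2.41 on the log2 scale. HSD17B7 has a near-identical pseudogene copy, so its count is uncertain.

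**Figure D3:**
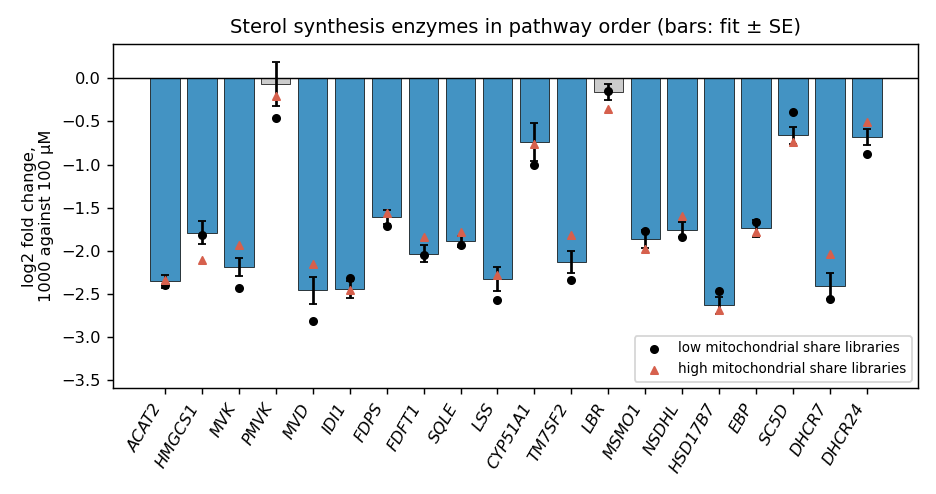
Log2 fold change (1000 against 100 µM) of 20 sterol synthesis genes in pathway order, as bars with ± SE from the fit over all libraries (blue, called lower; grey, not called), with the value in the low mitochondrial share libraries as circles and in the high share libraries as triangles. The 18 called members shown lie below 0 in both sets, and PMVK and LBR are the 2 short grey bars.

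Of 24 genes that sense, take up or export sterols, 5 rose and 8 fell, beside 21.8% and 22.3% of all tested features. Their median was -0.05 (-0.08 in the low and 0.10 in the high set). The intestinal-type sterol importer NPC1L1 (-1.58), the sterol carrier STARD4 (-1.37), and the regulators SREBF1 (-1.02) and SREBF2 (-0.84) fell. The doses did not overlap for any of these 4.

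Fatty acid synthesis, which shares much of its control with SREBP1, also fell, with 16 of 21 members lower, 4 higher and a median of -0.93. FADS2, a desaturase of polyunsaturated fatty acids, stood at 21.5, 21.0 and 28.6 CPM against 333.9, 320.8 and 333.3 CPM. This was a 13.9-fold fall (-3.80 ± 0.13 SE, adjusted p 1.39e-13 by edgeR). The fatty acid synthase FASN stood at 204.0, 205.3 and 376.6 CPM against 1086, 1225 and 1156 CPM (-2.14). Its fall was -2.58 in the low and -1.57 in the high set, and its high share library at 1000 µM stood above the other 2. The stearoyl-CoA desaturase SCD fell by 2.04 and the acetate-activating enzyme ACSS2 by 1.95 on the log2 scale. Fatty acid oxidation and ketogenesis had 4 of 20 members higher and 7 lower, with a median of -0.04 (-0.09 in both sets). Carnitine palmitoyltransferase CPT1A, which admits fatty acids to mitochondria, rose (1.31), while the fatty acid binding protein FABP1 (-1.22) and the peroxisomal enzyme EHHADH (-1.17) fell.

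Of 27 glycolysis and glucose transport genes, 19 fell and 3 rose, with a median of -0.78. PFKFB4, which makes the activator of phosphofructokinase, stood at 13.5, 16.2 and 14 CPM against 54.9, 79.8 and 59.0 CPM (-2.15), with no overlap. The aldolase ALDOC (-2.09), the glucose transporter SLC2A3 (-1.79) and PFKFB3 (-1.59) also fell. Lactate dehydrogenase LDHA fell from 1909 ± 158 to 990.3 ± 62.4 CPM (SD, n = 3; -0.95). The hypoxia-associated carbonic anhydrase CA9, outside this list, fell from 13.9, 16.2 and 11.9 CPM to 1.58, 2.66 and 2.20 CPM (-2.73).

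Of 17 gluconeogenesis and fasting genes, 8 rose and 2 fell, with a median of 0.26 (0.19 in the low and 0.44 in the high set). The coactivator PPARGC1A, which drives hepatic glucose output in fasting, stood at 75.1, 77.6 and 62.7 CPM against 15.6, 17.0 and 17.9 CPM. It rose 4.27-fold (2.09 ± 0.12 SE, adjusted p 1.05e-10 by edgeR), with 2.17 in the low and 1.90 in the high set. The glucose-6-phosphatase gene G6PC1 stood at 9.18, 8.82 and 7.55 CPM against 0.375, 0.533 and 0.529 CPM (4.13). Tyrosine aminotransferase TAT (1.36) and the carboxykinase PCK1 (1.20) rose, and the glucose-6-phosphate transporter SLC37A4 fell (-0.74).

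Among known protein targets of caffeine and among early cAMP-responsive genes, as many members rose as fell. Their shares were not far from those over all tested features (21.8% higher and 22.3% lower). Of 21 caffeine target genes tested, 5 rose and 5 fell, with a median of 0.08 (0.18 in the low and -0.02 in the high set). The IP3 receptor ITPR1, a calcium channel, rose from 35.5, 48.1 and 38.8 CPM to 126.3, 127.6 and 91.7 CPM (2.82-fold). The adenosine receptor ADORA2B rose (0.85) and the phosphodiesterase PDE4A fell (-0.63), though PDE4A did not pass in the high set alone (-0.35). The kinase ATM rose by 0.88 with overlapping doses, and its value of 0.32 in the high set did not pass. Of 18 cAMP and CREB targets, 5 rose and 5 fell, with a median of 0.03 (-0.10 in the low and 0.16 in the high set). CITED2 (-1.61) fell, as did the immediate early genes FOSB (-1.10) and, with overlapping doses, FOS (-0.87), whose values in the high set (-0.52 and -0.30) did not pass. The call for FOS was also lost without replicate 2 (-0.56) or replicate 3 (-0.89) at 100 µM and without replicate 1 (-0.88) or replicate 2 (-0.73) at 1000 µM, and that for FOSB without replicate 2 at 1000 µM (-0.84).

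The aryl hydrocarbon receptor (AHR) is a ligand-activated factor that induces xenobiotic-metabolising enzymes. Of 10 AHR targets and partners tested, 8 rose and none fell, with a median of 0.61. CYP1A1, its classical target, stood at 78.6, 78.3 and 80.8 CPM at 1000 µM against 5.74, 5.95 and 6.18 CPM at 100 µM. The libraries of each dose lay close together, and the rise was 13.3-fold (3.73 ± 0.12 SE, adjusted p 6.20e-14 by edgeR), with 3.72 and 3.76 in the low and high sets. AHR itself rose 3.59-fold (1.84), from 68.6, 77.2 and 73.4 CPM to 285.5, 293.7 and 207.0 CPM. The quinone reductase NQO1 rose (0.74), and the amino acid transporter SLC7A5 rose (0.48) but did not pass in the low set alone (0.25).

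ATF4 is a transcription factor whose translation increases when the kinases of the integrated stress response phosphorylate eIF2alpha, and its targets supply amino acids, tRNA synthetases and one-carbon units. Of 34 genes in the ATF4 and amino acid list, 31 rose and none fell, with a median of 1.10, and 0.95 and 1.17 in the low and high sets. ATF5 (0.25), PSPH (0.16) and DDIT4 (-0.40) did not pass, but with a term for the library set DDIT4 was called lower (-0.53) beside 31 members called higher. DDIT4 was also called lower without replicate 3 at 100 µM (-0.54). Without replicate 3 at 1000 µM, ATF5 (0.30) and PSPH (0.25) were called higher, as were ATF5 without replicate 1 (0.31) and PSPH without replicate 2 (0.25) at 100 µM. The promoter of asparagine synthetase (ASNS), at chr7:97872359-97872658, minus strand, is shown since it carries, in capitals, the letters TGATGNAA of the composite element that ATF4 binds.
ASNS: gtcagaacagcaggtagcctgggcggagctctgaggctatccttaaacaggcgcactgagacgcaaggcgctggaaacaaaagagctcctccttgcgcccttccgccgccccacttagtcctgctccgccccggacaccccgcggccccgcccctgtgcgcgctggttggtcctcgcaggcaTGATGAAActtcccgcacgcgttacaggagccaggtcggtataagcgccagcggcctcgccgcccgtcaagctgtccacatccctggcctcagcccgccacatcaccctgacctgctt
This motif, searched on both strands, was in 8 of 29 list members with a promoter in the table, against 3.67% of all 27305 promoters.

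ASNS stood at 423.4, 433.0 and 424.8 CPM at 1000 µM and 82.5, 78.1 and 82.1 CPM at 100 µM. It rose 5.28-fold (2.40 ± 0.10 SE, adjusted p 5.98e-13 by edgeR), and replicates differed by far less than doses did. The cystine importer SLC7A11 stood at 382.0, 400.3 and 215.9 CPM against 42.6, 53.1 and 44.1 CPM (2.83), with the high share library at 1000 µM below the other 2 but above all of 100 µM. ATF3 (2.08), a stress-induced transcription factor, and CHAC1 (1.90), which degrades glutathione, rose. The mitochondrial folate enzyme MTHFD2 rose from 209.4, 227.7 and 208.9 CPM to 786.8, 815.5 and 680.3 CPM (1.82), and ATF4 itself from 490.0, 568.7 and 422.1 CPM to 1042, 1108 and 884.2 CPM (1.03). Doses did not overlap for any of these 6 genes.

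Chaperones and sensors of the endoplasmic reticulum moved in both directions. Of 24 endoplasmic reticulum genes tested, 7 rose and 10 fell, with a median of -0.13 (-0.19 in the low and -0.02 in the high set). The sensor kinase ERN1 rose from 13.6, 19.0 and 14.9 CPM to 96.3, 93.9 and 63.6 CPM (2.41), and the cochaperone DNAJB9 rose (1.54). The calcium-binding chaperone calreticulin, CALR, fell from 1769, 1557 and 1633 CPM to 577.9, 581.2 and 737.9 CPM (-1.39). The main chaperone HSPA5 fell from 1452, 1645 and 1391 CPM to 1038, 1046 and 985.0 CPM (-0.55), and CRELD2 fell (-1.76). Whether the ATF4 and chaperone lists differ was not tested.

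Of 25 p53 targets, 12 fell and 3 rose, with a median of -0.16 (-0.17 in the low and -0.33 in the high set). The stress cytokine GDF15 rose from 139.2, 128.2 and 140.5 CPM to 497.9, 471.6 and 762.5 CPM (2.09), and the p53 ubiquitin ligase MDM2 rose (1.02). MDM2 stood at 575.5, 571.2 and 259.9 CPM against 178.6, 303.5 and 212.3 CPM, so its doses overlapped, and its value was 0.92 in the low and 0.41 in the high set. The antiproliferative gene BTG2 (-1.87), the damage sensor DDB2 (-1.46) and PHLDA3 (-1.11) fell, each with no overlap between doses.

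DNA replication genes build and fire replication origins and supply nucleotides, and many are induced by E2F factors when a cell commits to S phase. Of 46 genes tested, 45 fell and none rose, with a median of -1.37, and -1.45 and -1.27 in the low and high sets. The exception, the primase subunit PRIM1, had a value of 0.45 that did not pass. In the low set PRIM1 was called higher (0.44), and in the high set its value was -0.18 and did not pass. It was also called higher without replicate 2 at 100 µM (0.62) or without replicate 3 at 1000 µM (0.72). Of 60 genes of mitosis and G2/M, 48 fell and none rose, with a median of -0.59, and -0.57 and -0.55 in the sets. The promoters of GINS2, at chr16:85688905-85689204, minus strand, and SPC25, at chr2:168890381-168890680, minus strand, are shown because these lists differ in motif. Capitals mark the E2F letters TTTNNCGC in GINS2, where they lie on the other strand, and the cell cycle homology region TTTGAA in SPC25. Both strands were searched.
GINS2: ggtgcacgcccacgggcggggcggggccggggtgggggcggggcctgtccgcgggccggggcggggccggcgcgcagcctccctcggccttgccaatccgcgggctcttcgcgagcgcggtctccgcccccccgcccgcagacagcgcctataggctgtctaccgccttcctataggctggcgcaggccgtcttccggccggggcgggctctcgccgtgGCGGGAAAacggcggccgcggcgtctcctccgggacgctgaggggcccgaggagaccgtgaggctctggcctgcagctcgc
SPC25: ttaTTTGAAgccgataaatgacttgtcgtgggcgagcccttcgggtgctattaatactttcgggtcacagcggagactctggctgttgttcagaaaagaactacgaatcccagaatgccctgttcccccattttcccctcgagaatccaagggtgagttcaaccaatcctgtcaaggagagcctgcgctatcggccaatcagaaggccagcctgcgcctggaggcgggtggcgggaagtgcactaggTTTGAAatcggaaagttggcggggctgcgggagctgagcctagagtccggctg
The E2F letters were in 23 of 39 replication and 8 of 52 mitosis genes with a promoter, against 6.9% of all promoters. TTTGAA was in 37 of 52 mitosis genes and 1 of 39 replication genes, against 15.4% of all. CCAAT was in 39 of 52 mitosis genes, against 35.7%.

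GINS2, a subunit of the replicative helicase, stood at 3.27, 3.44 and 4.35 CPM at 1000 µM and at 30.2, 24.8 and 31.4 CPM at 100 µM, a 7.84-fold fall (-2.97 ± 0.14 SE, adjusted p 6.97e-12 by edgeR). Its level at 1000 µM was also below the control mean of 8.90 ± 1.29 CPM, and its level at 100 µM above it (SD, n = 3). Thymidine kinase TK1 stood at 11.8, 11.7 and 16.7 CPM against 59.9, 61.4 and 59.3 CPM (-2.17), with 22.9 ± 3.45 CPM in control. The helicase subunit MCM2 (-1.77), the clamp PCNA (-1.51) and the E2F family members E2F2 (-2.40) and E2F8 (-2.22) fell. Of mitosis genes, the regulator FOXM1 stood at 39.2, 39.9 and 71.9 CPM against 124.1, 88.8 and 126.8 CPM (-1.17), and the kinetochore subunit SPC25 at 6.81, 7.12 and 8.21 CPM against 18.7, 12.3 and 18 CPM (-1.14). SPC24, its partner, fell by 1.18 and the activator of the anaphase-promoting complex CDC20 by 1.04 on the log2 scale. Doses did not overlap for either FOXM1 or SPC25.

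Set against the mean of the controls, which share no library set with these 6 libraries, the 2 cell cycle lists took different positions. For each list the member values were expressed as log2(CPM + 1) minus the control mean, and the median was taken per library. Replication genes lay at 0.72, 0.86 and 0.80 at 100 µM and at -0.56, -0.54 and -0.48 at 1000 µM, so above control at one dose and below it at the other. Mitosis genes lay at 0.98, 0.90 and 0.95 at 100 µM and at 0.28, 0.32 and 0.35 at 1000 µM. Sterol synthesis genes lay at -0.01, -0.01 and -0.05 at 100 µM and at -2.00, -1.96 and -1.91 at 1000 µM. ATF4 genes lay at 0.02, 0.05 and 0.01 and then at 1.06, 1.09 and 1.10. The set of low mitochondrial share also holds replicate 3 at 1 µM and the 10 µM libraries, and there the 4 lists lay between -0.08 and 0.23, against -0.01 to 0.16 in the 1 µM libraries that belong to the set of the controls. The set of high share holds no dose below 100 µM, so its distance from control has no such measure.

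**Figure D4:**
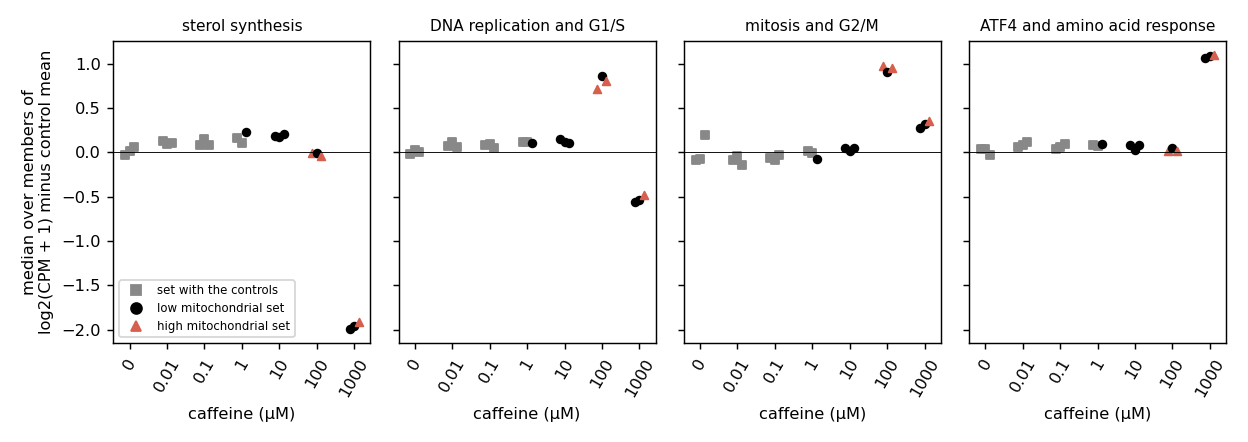
Median over list members of log2(CPM + 1) minus the control mean, for each of the 21 libraries by caffeine dose in µM, with the library set as marker (squares, set with the controls; circles, low mitochondrial share; triangles, high share). The sterol and ATF4 lists lie near 0 up to 100 µM and move at 1000 µM, while the replication and mitosis lists are highest at 100 µM.

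Metallothioneins are small cysteine-rich proteins that bind zinc and copper, and their genes respond to the zinc sensor MTF1. Of 8 genes of metallothioneins and zinc export tested, 4 rose and none fell, with a median of 0.78 (1.32 in the low and 0.68 in the high set), and 5 rose with the set term. The promoter of MT2A, at chr16:56608334-56608633, plus strand, is shown since it holds 8 copies of TGCNCNC, the metal response element core, in capitals (on the other strand GNGNGCA).
MT2A: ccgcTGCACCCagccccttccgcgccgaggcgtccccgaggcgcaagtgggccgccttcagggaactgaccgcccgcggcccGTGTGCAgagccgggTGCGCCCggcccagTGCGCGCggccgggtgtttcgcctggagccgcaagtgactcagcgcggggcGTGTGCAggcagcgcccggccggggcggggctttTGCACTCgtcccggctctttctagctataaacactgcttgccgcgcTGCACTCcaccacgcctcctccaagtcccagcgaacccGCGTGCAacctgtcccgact
This short motif is common, and was in 55.2% of all promoters and in 4 of 5 list members with a promoter. MT2A stood at 92.1, 94.4 and 159.3 CPM against 25, 8.74 and 22.1 CPM (2.64), MT1E at 25.1, 24.9 and 24.2 CPM against 2.89, 2.20 and 2.74 CPM (3.26), and MT1X rose (2.46). Doses did not overlap for MT2A. The zinc exporter SLC30A1 rose (1.04), while MT1F (0.52) and MT1G (-0.73) did not pass. MT1F was called higher with the set term (0.97). MT1G had a value of 0.24 in the low and -0.61 in the high set, and was called lower without replicate 2 at 100 µM (-1.12) or without replicate 3 at 1000 µM (-1.06). Metallothionein genes are close copies of each other, so the split of reads between them is uncertain.

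Plasma proteins, the secretory output by which HepG2 is known, were more often lower, with 17 of 33 fallen, 4 risen and a median of -0.43 (-0.46 in the low and -0.23 in the high set). In the high mitochondrial set alone 11 fell. Apolipoprotein APOC3 stood at 21.9, 19.7 and 34.5 CPM against 104.7, 75.4 and 103.6 CPM (-1.90), and the fibrinogen chain FGA at 79.0, 75.8 and 73.3 CPM against 222.5, 232.5 and 208.6 CPM (-1.54). The other fibrinogen chains, FGG (-1.01) and FGB (-0.88), fell too, and doses did not overlap for these 4 genes. ALB fell from 8345, 8719 and 8612 CPM to 6110, 6552 and 6339 CPM (-0.43), but in the high set its value of -0.42 had an adjusted p of 0.0568. Transthyretin TTR rose (0.45), with 0.70 in the low set and a value of 0.13 in the high set that did not pass.

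**Figure D5:**
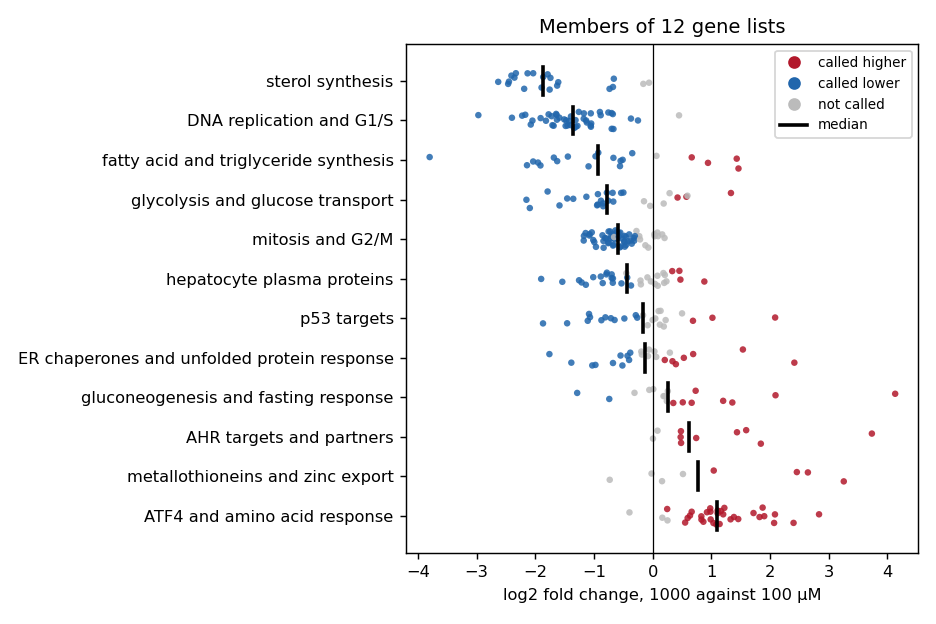
Log2 fold change (1000 against 100 µM) of each member of 12 gene lists, in red where called higher, blue where called lower and grey where not called, with the list median as a black bar; points are spread vertically only for legibility. The sterol and DNA replication lists lie almost wholly below 0 and the ATF4 list almost wholly above it, whereas the p53 and endoplasmic reticulum lists hold members on both sides.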

How the data were processed

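Per the labels' protocols, poly(dT) beads selected the RNA of the 21 HepG2 libraries and a SmartScribe kit made the cDNA. The authors deposited a table of whole-number, unnormalized read counts. HISAT2, DESeq2 and the build GRCh38 are named in the submitters' processing notes without their roles; the counting tool, annotation and use of strand are not given in the sources used here, so antisense, overlapping and copied genes are uncertain. It holds 37637 features, 32264 with a symbol, and a further 21 per-sample columns were not used.

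Features passing filterByExpr (17951) were normalized by TMM. The robust quasi-likelihood test of edgeR 4.0.16, run in R 4.3.3, used all 21 libraries and 1 mean for each dose group, and p-values were 2-sided, adjusted by Benjamini-Hochberg at a threshold of 0.05. The SE is the absolute log2 fold change over the square root of F. Library sets came from clustering of mitochondrial counts, which gave 3 sets at a silhouette of 0.571. A second fit with a mean per dose and set gave the difference within each set and between sets.

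Totals were 37406615, 27438469 and 25395221 counts at 1000 µM and 27934748, 44815552 and 23502519 at 100 µM. The common biological coefficient of variation was 14.8%. Replicates of 1 dose differed by more than read-counting noise in each of the 6 pairs (chi-square per gene of at least 4.04). This does not show whether they came from separate cultures, and all were counted as labelled. There were no molecular identifiers, so reads are not independent molecules. In simulated counts, 137 of 200 changed genes were recovered for this comparison (26 of 67 at 1.5-fold, 49 of 67 at 2-fold, 62 of 66 at 4-fold) with 8 false calls among 17751 features, and for the difference between sets 64 of 200 with 2 false calls. The simulation changed only 200 of 17951 features, whereas 44% were called in the data. It also held no difference between library sets. Its rates therefore do not carry over to these data.

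Named genes, a few of which are not reported here, were the 12 largest rises and 12 largest falls among called protein-coding genes with a mean of at least 5 CPM, no overlap between doses and a call in the same direction with the set term (4670 genes met these terms), IGFBP1, AQP3, SQLE and ACAT2, up to 4 called members of each list by absolute change and up to 3 members that did not pass. SREBF2, MCM2, PCNA, CDC20, ATF4, MTHFD2, HSPA5, LDHA, ALB, G6PC1, HMOX1, MT1X and MDM2 were chosen after their values were seen. The lists, the comparison and its leading genes were chosen with earlier results of these data known. Promoters and coordinates are RefSeq's on GRCh38.p14. Alternatives were DESeq2 size factors, the Wald test of DESeq2 1.42.0, voom in limma 3.58.1, no filter, at least 5 CPM, only the 6 libraries, the set term in all 21 or only the 6 libraries, each set alone, the replicate number as a block, mitochondrial features left out, and each library left out in turn.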

Additional observations from a re-analysis of the deposited data

Results flagged for a closer look

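The dose difference itself differed between the library sets for 17 features, by edgeR's quasi-likelihood test of the difference. Of these, 8 had a mean of at least 5 CPM. ZACN, a zinc-activated ion channel gene, is among them. It stood at 15.8 and 16.9 CPM in replicates 1 and 2 at 1000 µM and at 0.580 CPM in replicate 3, against 0.225, 0.256 and 0.176 CPM at 100 µM. Its log2 fold change was 5.98 in the low and 1.503 in the high mitochondrial set, a difference of -4.47 (adjusted p 0.00717 by edgeR). Its overall value was 5.60 ± 1.58 (SE, adjusted p 0.00947), and by limma-voom it was 4.70 and did not pass. The dose difference passed in both sets (adjusted p 1.89e-10 in the low and 0.042 in the high one).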

How the results depend on the processing

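The count of features called, 7906, was 7911 with DESeq2 size factors, 7851 by limma-voom, 7924 in a DESeq2 Wald test, 6906 without a filter, 6142 with at least 5 CPM, 5322 with only the 6 libraries, 8310 with the set term, 7750 with the set term in only the 6 libraries and 7920 without mitochondrial features. Within the high mitochondrial set it was 4734, and the plasma proteins called lower were 11 there; that set has 1 library at 1000 µM. Leaving out 1 library gave 6274 (without replicate 1 at 1000 µM) to 9324 (without replicate 3 at 1000 µM). The features whose dose difference differs between sets went from 17 to 1 with a mean of at least 5 CPM and to 3485 with only the 6 libraries; the cause was not tested. With the replicate block the count was 7671. Same-numbered libraries had correlations of their deviations of -0.311, 0.413 and 0.356 over 17951 features, but replicate 1 spans both mitochondrial sets while replicates 2 and 3 each lie within one, so these values do not show whether a number pairs libraries. Under the alternatives, 2222 values of the 125 named genes that had passed kept direction and side of the threshold, 26 kept direction only, and 0 changed sign. Of the values of 9 named members that had not passed, 125 stayed so with the same sign, 31 passed and 4 changed sign: PRIM1 in the high set (-0.18), MT1G in the low set (0.24), and PMVK on leaving out a library, where it ranged from -0.27 to 0.44. For 12 lists the count of members called in the more frequent direction was recomputed, and apart from that of the plasma proteins it stayed within 1.5 times. Members of the other lists were counted again only with the set term.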

Other observations

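Of 16 antioxidant genes under the factor NRF2, 8 rose and 3 fell at 1000 against 100 µM, or 7 and 4 with the library set as a term. Their median was 0.23, with 0.07 in the low and 0.21 in the high mitochondrial set. Over all tested features 21.8% rose and 22.3% fell, beside which these counts and those below are to be read. Thioredoxin reductase TXNRD1 rose from 178.6, 210.9 and 179.0 CPM to 670.8, 704.2 and 547.7 CPM (1.76), and SRXN1 (1.40), the glutathione-synthesising enzyme subunit GCLC (1.34) and OSGIN1 (1.31) rose, with no overlap between doses. Heme oxygenase HMOX1 fell from 64.9, 69.0 and 67.1 CPM to 31.1, 31.8 and 34.1 CPM (-1.05). Of 12 bile acid genes, 4 rose and 5 fell. The canalicular exporter ABCC2 rose from 905.4, 901.3 and 931.3 CPM to 2438, 2343 and 2134 CPM (1.34) and the basolateral exporter ABCC3 rose (0.90), while the FGF19 coreceptor KLB (-1.39) and the steroid reductase AKR1D1 (-1.02) fell.

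Of 16 hepatocyte transcription factors, 4 rose and 5 fell. ONECUT2 rose from 23.2, 23.3 and 24.8 CPM to 65.3, 65.1 and 53.9 CPM (1.37), and CEBPA (-0.68) fell. The bile acid receptor NR1H4 rose (0.61), but its value in the high mitochondrial set (0.40) did not pass. Of 17 clock genes, 6 rose and 5 fell, among them NFIL3 (0.93) and CRY1 (0.89) higher and BHLHE40 (-0.93) and BMAL1 (-0.71) lower. Of 15 TGF beta and YAP targets, 6 rose and 3 fell. The actin-binding protein gene TAGLN fell from 61.3, 58.5 and 56.0 CPM to 10.7, 11.8 and 13.4 CPM (-2.30), while SKIL (1.23), AXL (1.17) and CCN2 (0.82) rose. The 13 mitochondrial mRNAs had a median of -0.56, with 0.01 in the low and -0.14 in the high set. With the set as a term 1 of them, MT-ND1, was called lower (-0.35), but the sets were formed from the counts of these same mRNAs. MT-ND1 also passed without replicate 2 at 100 µM (-1.34) or without replicate 3 at 1000 µM (-1.98). The former leaves 100 µM in the high set only and the latter leaves 1000 µM in the low set only. Dose and set cannot be told apart in these values. The macrophage marker CD68 fell (-1.13) with overlapping doses.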
